A study of Mus musculus with 4 samples.

Results

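The small leucine-rich proteoglycans are secreted matrix proteins built around a curved stack of leucine-rich repeats, many of which carry chondroitin, dermatan or keratan sulfate chains. They bind collagen fibrils and set how thick the fibrils grow and how they are spaced, and several of them also bind growth factors of the TGF-beta and BMP families in the matrix. Cartilage, tendon, bone and skin each use their own mix of the family, so the mix is known to differ between skeletal tissues. The family was taken here as 10 genes by name, all 10 of which were present among the 55228 genes of the count table and passed the filter on low counts. By the usual grouping of the protein family they fell into 3 classes. Dcn (decorin), Bgn (biglycan) and Aspn (asporin) belong to class I. Fmod (fibromodulin), Lum (lumican), Prelp (also called prolargin), Kera (keratocan) and Omd (osteomodulin, or osteoadherin) belong to class II, and Epyc (epiphycan) and Ogn (osteoglycin, or mimecan) to class III.

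The study sequenced total RNA of rib cartilage cells taken from C57BL/6 embryos at E17.5, in 2 wild-type (WT) libraries and 2 Trim28 knockout (Trim28 KO) libraries. TRIM28, recruited to DNA by zinc finger proteins, is a corepressor that helps to silence genes. How the Trim28 allele was made, in which cells it was lost, and whether each library came from its own embryo were not given in the sources used here, so the p-values rest on library-to-library spread, which in WT may be only technical. Levels are counts scaled to a common library size (CPM) with TMM factors (trimmed mean of M-values), and changes are log2 fold changes of Trim28 KO over WT from edgeR's quasi-likelihood test, with p-values adjusted over all 16639 genes tested and a call at an adjusted p under 0.05.

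The libraries held 18616896 to 20082123 counts, so that 3 counts stood for 0.151 to 0.159 CPM. Trim28 stood at 225 and 186 CPM in WT and at 51.1 and 54.5 CPM in Trim28 KO, which matched the labels. The chondrocyte markers Col2a1, the main collagen of cartilage, and Sox9, its defining transcription factor, were present in all libraries (Sox9 at 345 to 462 CPM). The sum of 14 chondrocyte markers was 91095 to 118851 CPM in WT and 82822 to 105900 CPM in Trim28 KO. These sums overlapped, with 3 of the 14 genes lower and 0 higher. Ucma, named after its values were seen, fell from 5411 and 4580 CPM in WT to 756 and 1066 CPM in Trim28 KO. Markers of several other tissues moved with genotype, and those of some did not. The summed level of 13 tendon, perichondrium and fibroblast markers was 13601 to 14624 CPM in WT and 5891 to 7288 CPM in Trim28 KO (7 of 13 lower), that of 10 osteoblast markers, Col1a1 included, 22300 to 38523 and 8501 to 12299 CPM (9 of 10 lower), and that of 9 hypertrophic chondrocyte markers 7316 to 7976 and 3017 to 3892 CPM (8 of 9 lower). Col1a1 alone, at 37380 and 21087 CPM in WT and 8258 and 11921 CPM in Trim28 KO, made up most of the osteoblast sum. Alpl and Ibsp are in both the osteoblast and the hypertrophic list, so the counts of these lists share genes. Markers of cells of the blood lineages moved as well. The sum of 8 osteoclast markers was 848 to 1020 CPM in WT and 226 to 227 CPM in Trim28 KO (7 of 7 tested lower), that of 7 red blood cell markers 255 to 349 and 75.5 to 81.7 CPM (6 of 6 tested lower), and that of 8 neutrophil markers 4.04 to 25.7 and at most 1.70 CPM (3 of 6 tested lower). The sum of 9 macrophage markers went the other way, with 120.0 to 122 CPM in WT and 259 to 424 CPM in Trim28 KO (7 of 9 higher). Sums of 10 skeletal muscle markers (1 higher, 1 lower) and 7 Schwann cell markers (1 higher, 3 lower) overlapped between genotypes. Endothelium markers summed to 583 and 496 CPM in WT and to 412 and 464 CPM in Trim28 KO (1 of 9 lower). Adipocyte markers summed to 65.8 and 76.6 CPM in WT and to 104 and 95.4 CPM in Trim28 KO (1 of 3 tested higher). No marker of these lists was at 0 in all libraries.

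Of the 10 small leucine-rich proteoglycan genes, 4 fell in Trim28 KO, namely Epyc, Kera, Omd and Aspn. The other 6, Fmod, Bgn, Lum, Dcn, Prelp and Ogn, were not called. Over all genes tested, 8.77% were called lower, 8.64% higher and 17.4% in either direction. None of the 10 rose by edgeR's quasi-likelihood test, and this count was also 0 at an unadjusted p under 0.05, by DESeq2 and by limma-voom. The median log2 fold change of the 10 genes was -0.30, against -0.02 over all genes tested. The genotypes did not overlap in 8 of the 10 genes, 6 of them lower and 2 higher in Trim28 KO, where 58% of all tested genes did not overlap. In bulk RNA, fewer cells of a type and less RNA per cell cannot be told apart. The falls of tendon, osteoblast, hypertrophic, osteoclast and red blood cell markers given above moved with the 4 falls, and their part in these was not tested.

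**Figure D1:**
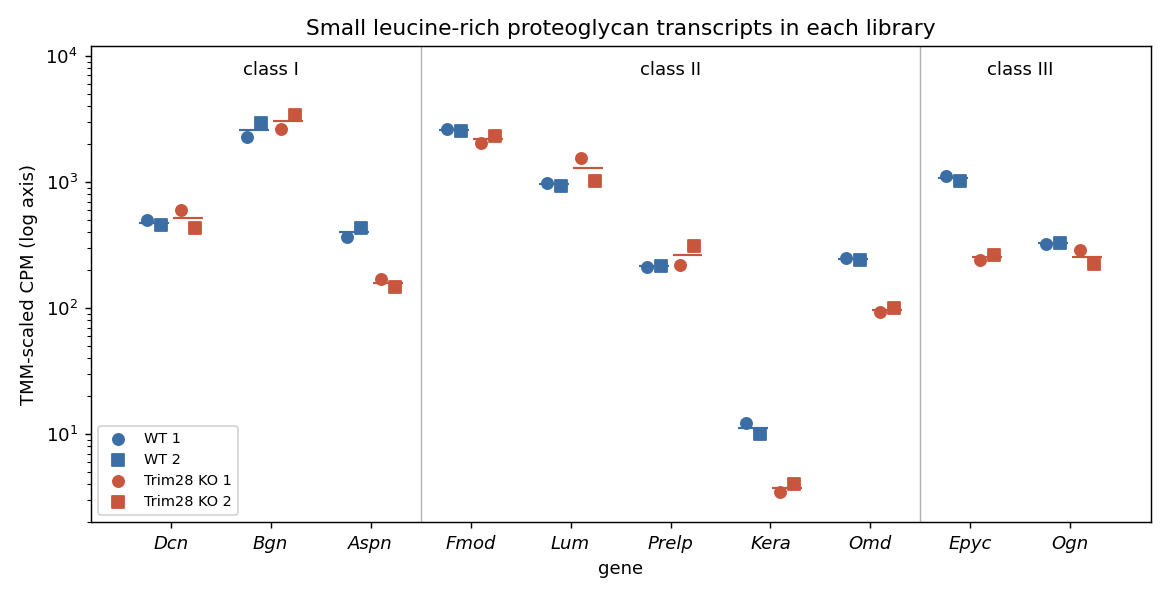
TMM-scaled CPM of each gene on a log axis, with 1 point per library, short lines at the genotype means and vertical lines between the protein classes. Epyc, Kera, Omd and Aspn lie lower in both Trim28 KO libraries, while Dcn and Bgn overlap between the genotypes.

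Epyc, which encodes a proteoglycan of growth plate cartilage that shares its class with Ogn, changed most. It stood at 1117 and 1021 CPM in WT and at 239 and 266 CPM in Trim28 KO. Both knockout libraries lay far below both WT libraries, and the libraries of a genotype lay close together. The mean went from 1069 ± 67.9 to 252 ± 18.9 CPM (SD, n = 2 per genotype), a 4.24-fold fall with a log2 fold change of -2.08 ± 0.22 (SE, quasi-likelihood test of edgeR, adjusted p = 2.50e-07). By p-value it ranked 97th of the 16639 genes. The 3′ end of Epyc shares 1041 of its 2561 exon bases (40.6%) with Gm10754, a noncoding RNA gene on the opposite strand. Fragments that overlapped both genes were not counted for either and strand was not used. The overlap was read from GENCODE M21, while the counts used GENCODE M23, in which it was assumed and not examined. If it holds there, Epyc was counted over part of its transcript and its level is a lower estimate. Gm10754 itself was not called (-1.02 ± 0.54, adjusted p = 0.212).

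Kera, the keratan sulfate proteoglycan best known from the cornea, was the rarest member. It had 230 and 198 counts in WT and 68 and 80 in Trim28 KO. Both knockout libraries lay well below both WT libraries. The mean went from 11.1 ± 1.57 to 3.76 ± 0.36 CPM (SD, n = 2). It fell 2.95-fold (-1.56 ± 0.25, edgeR quasi-likelihood adjusted p = 7.94e-05). Omd, a keratan sulfate proteoglycan of bone matrix that binds osteoblasts through integrins, stood at 249 and 240.1 CPM in WT and at 92.5 and 99.7 CPM in Trim28 KO. Libraries of a genotype lay close together, and the genotypes were far apart. Omd fell 2.54-fold (-1.35 ± 0.20, adjusted p = 3.15e-05 by the same test).

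Aspn, a class I protein named for its run of aspartate residues, binds TGF-beta1 and collagen and is abundant in perichondrium, periosteum and tendon. It stood at 365 and 433 CPM in WT and at 169.5 and 148 CPM in Trim28 KO. Every WT value exceeded both knockout values. It fell 2.51-fold (-1.33 ± 0.21, edgeR quasi-likelihood adjusted p = 6.55e-05). Aspn and Omd thus had nearly the same fitted change, while Epyc fell further.

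The remaining class I genes were not called. Dcn, whose protein decorates collagen I fibrils and binds TGF-beta, stood at 498 and 455 CPM in WT and at 596 and 432 CPM in Trim28 KO. The knockout libraries lay on either side of the WT pair. Its log2 fold change was 0.11, with a 95% interval of -0.34 to 0.56 (edgeR quasi-likelihood adjusted p = 0.784), and without Trim28 KO 1 it was -0.13. Bgn, the close relative of decorin that is common in bone and cartilage, stood at 2267 and 2929 CPM in WT and at 2647 and 3425 CPM in Trim28 KO, so the genotypes overlapped. Its log2 fold change was 0.22 with an interval of -0.28 to 0.73. Bgn lies on the X chromosome, and the libraries differed in sex. Xist, which is transcribed from the inactive X, was at 358 CPM in Trim28 KO 2 and at 0.978 CPM or less in the other libraries, and 4 Y-linked genes were at 0.602 CPM or less in Trim28 KO 2. Bgn was highest in that library, and the part of sex in its level was not tested.

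The remaining class II genes were not called either. Fmod, a collagen-binding keratan sulfate proteoglycan of cartilage and tendon, stood at 2646 and 2557 CPM in WT and at 2041 and 2304 CPM in Trim28 KO. Both knockout values were lower, but the log2 fold change of -0.26 had a 95% interval of -0.74 to 0.22. Lum, its closest relative and a regulator of fibril diameter, stood at 987 and 932 CPM in WT and at 1548 and 1025 CPM in Trim28 KO. Trim28 KO 1 was far above the rest and Trim28 KO 2 only just above WT. The log2 fold change of Lum was 0.42 with an interval of -0.06 to 0.91 (edgeR quasi-likelihood adjusted p = 0.231), and it was 0.10 without Trim28 KO 1 and 0.70 without Trim28 KO 2. Prelp, a basic heparin-binding member that links matrix to basement membranes, stood at 211 and 217 CPM in WT and at 219 and 310.4 CPM in Trim28 KO. Only Trim28 KO 2 stood apart, and the log2 fold change was 0.31 with an interval of -0.13 to 0.75, or 0.04 without Trim28 KO 2. Prelp shares 9.7% of its exon bases with an antisense gene, Gm15851.

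Ogn, the other class III gene and a marker of periosteum and other fibrous tissue, stood at 322 and 330.0 CPM in WT and at 289 and 224 CPM in Trim28 KO. The genotypes did not overlap, yet the fall was small beside the spread in Trim28 KO, and the gene was not called. Its log2 fold change was -0.35 with a 95% interval of -0.77 to 0.08 (edgeR quasi-likelihood adjusted p = 0.275). The intervals of all 6 uncalled genes included 0 and lay above the upper bounds of the 4 called genes, of which the highest was -0.90 for Aspn. A change as large as a 2-fold fall was thus outside the interval of each of the 6.

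**Figure D2:**
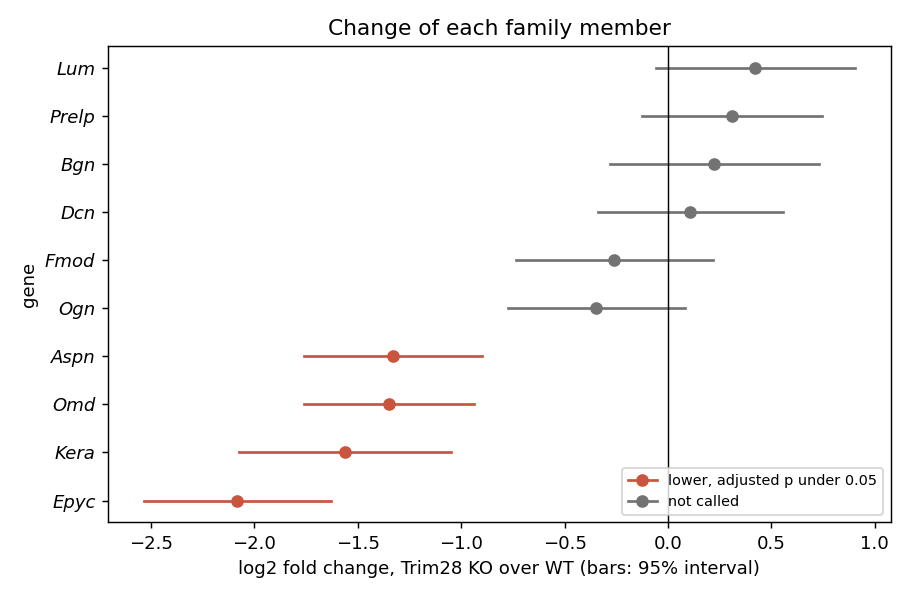
Log2 fold change of each gene, Trim28 KO over WT, with its 95% interval from edgeR's quasi-likelihood fit. The intervals of Aspn, Omd, Kera and Epyc lie wholly below 0, and those of the other 6 genes include 0.

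Most of these genes sit in groups on the chromosomes, a trait of the family that the choice by name did not use. On GRCm38, Dcn, Lum, Kera and Epyc follow each other on the plus strand of chromosome 10 from 97479609 to 97682454, within 202.8 kb. Aspn, Omd and Ogn do the same on chromosome 13 from 49544443 to 49624501, within 80.1 kb, with Ecm2, a matrix gene that also encodes leucine-rich repeats, 11.7 kb before Aspn. These genes lie on the plus strand inside the span of Cenpp, a centromere gene on the minus strand, and Aspn shares 7 exon bases with it. Prelp and Fmod lie on chromosome 1 from 133910304 to 134048277 with 115.8 kb between them, on opposite strands, and Bgn on the X chromosome from 73483602 to 73495933.

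Both of the larger groups were split. On chromosome 10, Dcn (0.11) and Lum (0.42) came first and were not called, and Kera (-1.56) and Epyc (-2.08), which start 127.3 and 164.5 kb after Dcn, fell. The gap between Lum and Kera, where calls began, is 34.2 kb. On chromosome 13, Ecm2 (-2.39 ± 0.21, edgeR quasi-likelihood adjusted p = 1.68e-08), Aspn (-1.33) and Omd (-1.35) fell and Ogn (-0.35), 15.2 kb further on, was not called. Ecm2 went from 115 and 122 CPM in WT to 18.8 and 26.3 CPM in Trim28 KO. The host gene Cenpp (-0.53) and the tested genes nearest to the chromosome 13 group, Tes3-ps (0.02) and Ippk (-0.33) before it and Nol8 (0.03), Iars (0.06) and Fbxw17 (-0.12) after it, were not called. On chromosome 10, Gm10754 (-1.02), which overlaps the end of Epyc and runs on beyond it, was not called. The nearest tested genes outside the group lie far off, Btg1 (-0.08) 856.8 kb before and Atp2b1 (-0.06) 1232 kb after. Neither they nor the next ones out, Eea1 (0.00069) and Anapc15-ps (0.64) before and Gm48768 (-0.71) and Poc1b (0.16) after, were called.

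**Figure D3:**
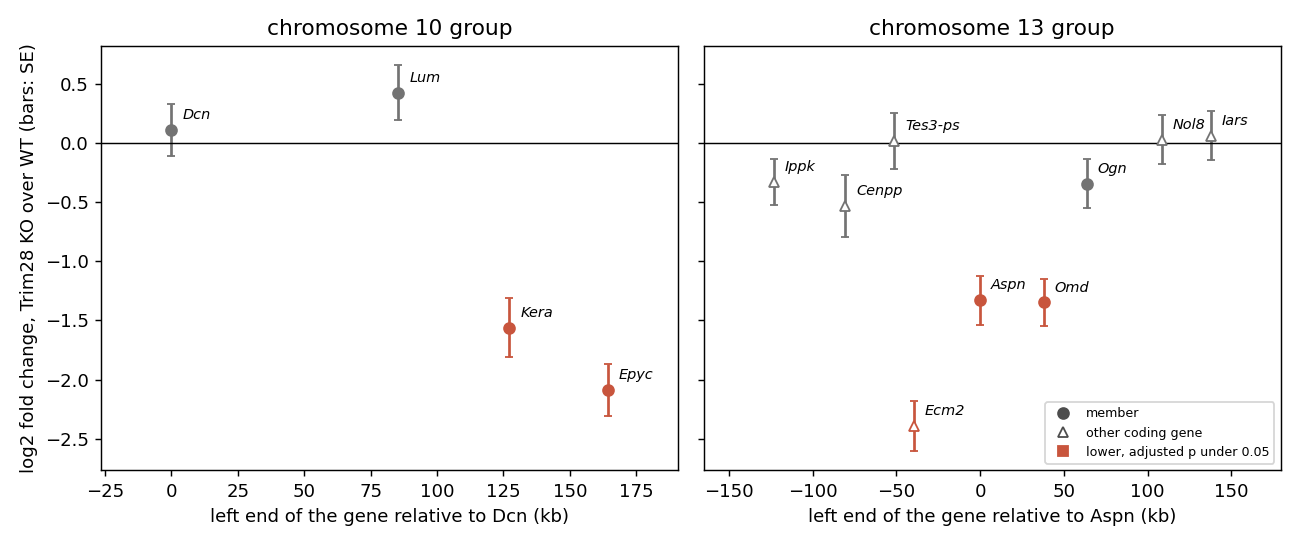
Log2 fold change with its standard error against the left end of each gene in kb, counted from Dcn (chromosome 10 group) or Aspn (chromosome 13 group); filled circles are family members and open triangles other coding genes. In each group called genes stand beside uncalled ones, with Kera and Epyc at the far end from Dcn and with Ecm2, Aspn and Omd before Ogn.

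Beside Prelp and Fmod, Optc, a class III relative known from the eye, was near the detection limit with 17 and 12 counts in WT and 6 and 5 in Trim28 KO. Of the tested genes nearest to this pair, Atp2b4 (-1.23) and Chil1 (-1.69) fell, Chit1 (1.597) rose, and Optc, Lax1 and Btg2 were not called. Near Bgn, Xlr3c (-4.21) and the phosphatase gene Dusp9 (-1.53) fell, the creatine transporter gene Slc6a8 (0.65) rose, a call lost without WT 2 or either Trim28 KO library (adjusted p of 0.0858 to 0.117), and Haus7, Zfp275 and Pnck were not called. The called genes lay 63.0 to 133.9 kb from the pair of Prelp and Fmod and 143.5 to 218.2 kb from Bgn. Optc (2.3 kb), Btg2 (26.9 kb) and Haus7 (24.6 kb), which lay closer, were not called.

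Promoter sequence from RefSeq (GRCm38.p6) was matched for 8 of the 10 genes, all but Dcn and Lum. Epyc has 2 windows in that table, for 2 starts, and the more upstream one is used below unless the other is named. The RefSeq start of Kera lies inside the GENCODE gene, so its window lies past the GENCODE start. The windows of 250 bases before the start are shown for the fallen Epyc, Aspn and Omd and for Ogn, the uncalled neighbour of the latter pair, all 5′ to 3′ on the plus strand, with capitals on the letters ACAAT or their reverse complement ATTGT, the core that SOX proteins are known to bind. They lie at chr10:97643818-97644067 (Epyc), chr13:49544193-49544442 (Aspn), chr13:49582212-49582461 (Omd) and chr13:49607765-49608014 (Ogn).
Epyc: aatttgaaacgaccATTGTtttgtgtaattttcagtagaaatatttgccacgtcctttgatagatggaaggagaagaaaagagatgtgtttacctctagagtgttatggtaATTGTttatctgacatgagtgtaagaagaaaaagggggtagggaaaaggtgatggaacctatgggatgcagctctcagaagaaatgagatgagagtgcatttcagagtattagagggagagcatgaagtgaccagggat
Aspn: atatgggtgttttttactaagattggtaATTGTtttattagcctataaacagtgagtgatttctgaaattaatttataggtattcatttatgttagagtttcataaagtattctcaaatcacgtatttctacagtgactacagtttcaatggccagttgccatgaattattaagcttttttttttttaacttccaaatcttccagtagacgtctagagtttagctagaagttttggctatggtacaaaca
Omd: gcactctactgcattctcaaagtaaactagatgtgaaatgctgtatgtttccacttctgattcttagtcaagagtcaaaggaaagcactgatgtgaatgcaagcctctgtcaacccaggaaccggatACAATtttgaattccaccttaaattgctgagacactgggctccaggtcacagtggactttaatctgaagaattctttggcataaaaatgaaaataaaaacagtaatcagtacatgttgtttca
Ogn: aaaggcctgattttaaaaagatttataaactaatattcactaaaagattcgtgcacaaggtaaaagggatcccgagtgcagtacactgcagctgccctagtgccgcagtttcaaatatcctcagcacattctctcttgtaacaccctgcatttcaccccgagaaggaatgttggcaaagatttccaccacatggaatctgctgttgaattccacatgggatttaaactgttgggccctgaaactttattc
The core occurs 2 times in the Epyc window, at 236 and 139 bases before the start, and 1 time each in those of Aspn (222 bases) and Omd (123 bases), and the Ogn window holds none. The second Epyc window (chr10:97646853-97647102, not shown, 31.2% GC) holds it 3 times. The longer letters AACAAT, which contain the core, were in the windows of Epyc, Aspn, Kera and Prelp.

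Searched on both strands, ACAAT was in the windows of 5 of the 8 genes (Epyc, Kera, Aspn, Omd and Prelp) and absent from those of Fmod, Bgn and Ogn, while 27.7% of 32851 RefSeq promoter windows of this length hold it. AACAAT was in 4 of the 8, against 9.42%. The TATA letters TATAAA were in 2 (Aspn and Ogn), against 12.4%, the RUNX core TGTGGT in 1 (Ogn), against 14% of all windows, the E-box CANNTG in 4, against 66.2%, and the AP-1 letters TGANTCA in 0, against 6.75%. The second Epyc window also holds AACAAT and, unlike the first, the E-box. These motifs were chosen with the changes of the genes known. The windows also differed in base composition, with a GC content of 30.0% for Aspn, 38.4% for Omd, 39.2% for Epyc, 42.4% for Kera and 42.0% for Ogn, against 51.2% for Fmod, 55.6% for Prelp and 64.4% for Bgn and a median of 52.4% over all windows. The part of base composition in these matches was not tested. A match is a run of letters and does not show binding.

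Levels of different genes were compared per kb of exon. In WT, Fmod was the most abundant member at 787 ± 19.0 CPM per kb (SD, n = 2). Bgn (426 ± 76.8), Epyc (417 ± 26.5) and Lum (392 ± 16.1) followed on the same scale and overlapped with each other. Below them came Aspn (169 ± 20.5), Ogn (127 ± 2.25), Omd (109 ± 2.83), Dcn (81.7 ± 5.15), Prelp (59.1 ± 1.09) and Kera (4.87 ± 0.69), with no overlap between neighbours in that order. In Trim28 KO the highest were Fmod (657 ± 56.3), Lum (526 ± 151) and Bgn (498 ± 90.2 CPM per kb), of which Lum overlapped with both others, while Fmod lay above Bgn in both libraries. Ogn (99.9 ± 18.0), Epyc (98.5 ± 7.37), Dcn (88.1 ± 19.8), Prelp (73.3 ± 17.8) and Aspn (67.4 ± 6.48) then formed an overlapping series, above Omd (42.7 ± 2.27) and Kera (1.65 ± 0.16). This order depends on the length used. Per kb of the longest transcript, Bgn stood above Fmod in WT (975 and 834 CPM per kb) and in Trim28 KO (1139 and 696 CPM per kb), and per kb of exon shared with no other gene, Epyc stood at 703 CPM per kb in WT and 166 in Trim28 KO. The longest transcript of Bgn has 1 exon of 2666 bases, where its merged exons hold 6099 bases. That of Dcn holds 4692 bases, where its merged exons hold 5838. Which transcripts the counts came from was not tested.

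The summed level of the 10 genes was 2552 and 2595 CPM per kb in WT and 2167 and 2137 in Trim28 KO, and they took 0.813% to 0.927% of all counts in WT and 0.818% to 0.825% in Trim28 KO. The make-up of that sum differed. Epyc took 17.1% and 15.4% of the per-kb sum in WT and 4.30% and 4.85% in Trim28 KO. Lum took 15.8% and 14.7% in WT and 29.2% and 19.6% in Trim28 KO, and Bgn 14.6% and 18.5% in WT and 20.0% and 26.3% in Trim28 KO. The share of Fmod stayed between 28.5% and 32.6% in all 4 libraries, the largest in each but Trim28 KO 1, where that of Lum was larger. These shares and the class sums below use merged exon lengths and depend on them. By the longest transcript, Bgn stood above Fmod, as given above. A share can move because another gene moved, and the shares of Lum and Bgn are read beside their own changes, which were not called.

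**Figure D4:**
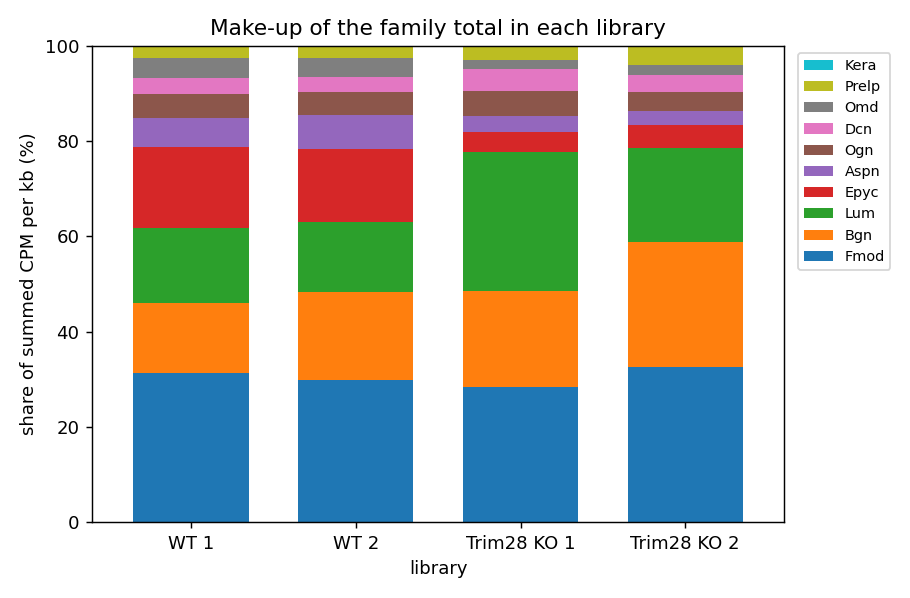
Share of each gene in the family's summed CPM per kb of merged exon, in percent, with 1 stacked bar per library. The Epyc part is 15.4% or more in the WT bars and 4.85% or less in the Trim28 KO bars, while the Fmod part stays between 28.5% and 32.6%.

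By class, class I summed to 612 and 742 CPM per kb in WT and to 608 and 698 in Trim28 KO, class II to 1378 and 1325 in WT and to 1353 and 1248 in Trim28 KO, and class III to 562 and 527 in WT and to 206 and 191 in Trim28 KO. The genotypes overlapped in class I, whose sum is mostly Bgn, and in class II, whose sum is mostly Fmod and Lum. Class III, which is Epyc and Ogn, was lower in both Trim28 KO libraries. Most of that fall was in Epyc, which went from 417 to 98.5 CPM per kb. Ogn, which was not called, went from 127 to 99.9 CPM per kb. Each class held at least 1 fallen gene: 1 of 3 in class I, 2 of 5 in class II and 1 of 2 in class III.

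Ratios between members within a library do not depend on library scaling; the pairs were chosen with the changes known, so they carry no test. The per-kb ratio of Epyc to Dcn, its group mate on chromosome 10, was 5.11 in both WT libraries and 0.914 and 1.40 in Trim28 KO. The ratio of Aspn to Bgn, both class I, was 0.417 and 0.383 in WT and 0.166 and 0.112 in Trim28 KO. For Omd and Ogn, neighbours on chromosome 13, the ratio was 0.883 and 0.830 in WT and 0.365 and 0.508 in Trim28 KO. The ratio of Lum to Fmod, a pair known to share binding on collagen, was 0.504 and 0.492 in WT and 1.02 and 0.601 in Trim28 KO, with most of the rise in Trim28 KO 1. None of the 10 ratios computed, of which these are 4, overlapped between genotypes; all but that of Lum to Fmod were lower in Trim28 KO.

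Genes averaging 5 CPM or more were ranked by the distance of their log2 CPM profile, centred over the 4 libraries, from that of a member. The 5 nearest to Epyc were Ifitm5 (distance of 0.116 in log2 units), which encodes an osteoblast membrane protein, Trim28 (0.174), Dusp5 (0.230), Wnk2 (0.243) and Slc37a2 (0.280). Those nearest to Omd were Rps12-ps4 (0.0576), a ribosomal protein pseudogene whose reads are uncertain, Insc (0.0869), Lrrc1 (0.126), Ffar4 (0.128) and Ypel3 (0.130). With 4 libraries, any gene of the same fold and like spread comes out near.

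Among 7 tested genes of other leucine-rich repeat matrix proteins, Ecm2 and Podnl1 fell and Tsku rose (8.77% of all genes were lower and 8.64% higher), with a median log2 fold change of -0.51. Podnl1, a podocan-like class V relative, went from 27.8 and 23.7 CPM in WT to 4.07 and 5.07 CPM in Trim28 KO, a 5.63-fold fall (-2.49 ± 0.22). Tsku (tsukushi), a secreted class IV relative that binds BMP, Wnt and other signals, went from 33.1 and 28.1 to 71.5 and 82.6 CPM (1.33 ± 0.19). Their adjusted p-values by edgeR's quasi-likelihood test were 1.99e-08 and 2.14e-05. Chad (chondroadherin), a cartilage protein that binds cells through integrin, had a log2 fold change of -0.34, and Chadl (-0.51), Podn (-0.25) and Optc (-1.41) were not called either, though without WT 2 Chadl was called lower (-0.89, adjusted p = 0.00468). Nyx was below the filter.

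Of 28 tested genes for enzymes that build the sugar chains of these proteins, 6 rose, 3 fell and 19 were not called, with a median of 0.23. Among all genes tested 8.64% rose and 8.77% fell, and the 3 falls stood near that share. Xylt1, which adds the first xylose of chondroitin and dermatan sulfate chains to the core protein, went from 158 and 182 CPM in WT to 459 and 538 CPM in Trim28 KO (1.55 ± 0.21, edgeR quasi-likelihood adjusted p = 1.11e-05). Chst3, a chondroitin 6-O-sulfotransferase (1.19 ± 0.20), and Chsy3, a chondroitin synthase (0.91 ± 0.20), rose, and Csgalnact2, which starts chondroitin chains, fell (-0.76 ± 0.19), and was not called without Trim28 KO 1 (adjusted p = 0.128) or WT 2 (0.0646). Dse and Chst14, which make dermatan sulfate, had log2 fold changes of -0.11 and 0.10 and were not called; they and Chst1 were picked for naming with their values known. Chst1, a keratan sulfate sulfotransferase, fell from 24.5 and 13.7 to 6.44 and 10.7 CPM (-1.16 ± 0.32, adjusted p = 0.0390 by the same test), and was not called without Trim28 KO 1 (0.215) or WT 1 (0.0838) or with the replicate block (0.211). Without Trim28 KO 1, none of the 3 falls (Csgalnact2, Ust and Chst1) was called, and without Trim28 KO 2 the count of rises was 3.

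Of 18 collagens that the family binds or that run with it in fibrils, 5 fell, 2 rose and 11 were not called, with a median of -0.33. The 2 rises stood near the 8.64% of all genes tested that rose, where 8.77% fell. Col5a3 (-1.69 ± 0.21), Col1a1, the main collagen of bone and tendon (-1.53 ± 0.32), Col3a1 (-1.19 ± 0.27) and Col14a1, a fibril-surface collagen (-1.08 ± 0.24), fell. Col2a1, the main fibril collagen of cartilage, was not called (-0.02 ± 0.31). The 2 that rose were Col6a2 (0.91) and Col6a1 (0.72), named after their values were seen; they encode chains of the beaded filament that Dcn and Bgn are known to bind. Without Trim28 KO 1 the calls of Col1a1 (adjusted p = 0.0507), Col3a1 (0.0764) and Col14a1 (0.101) were lost and 1 of the 18 was called lower, and without WT 2 or Trim28 KO 2 the collagen VI genes were not called (adjusted p from 0.0721 to 0.252).

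Of 10 tested proteases and helpers known to process or cut the family, 4 fell and 1 rose, with a median of -0.31. The share over all genes tested was 8.64% for rises, near that of the list, and 8.77% for falls. Mmp13, a collagenase that cuts fibromodulin (-2.58 ± 0.22), Tll1, a tolloid-like protease that, as Bmp1 does, trims the propeptide of Bgn (-2.99 ± 0.33), and Pcolce, an enhancer of procollagen trimming (-1.23 ± 0.22), fell. Mmp3 rose from 0 and 4 counts in WT to 45 and 65 counts in Trim28 KO. Bmp1 itself stood at 361 and 271 CPM in WT and at 242 and 286 CPM in Trim28 KO and was not called (-0.26), and it was named after its value was seen.

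Of 16 tested growth factors and receptors that members of the family bind, 5 fell, 1 rose and 10 were not called, with a median of -0.40. For all genes tested these shares were 8.64% for rises, near that of the list, and 8.77% for falls. Bmp4 (-1.91 ± 0.22) and Igf1r, a receptor that Dcn binds (-1.09 ± 0.19), fell, as did Met, another receptor bound by Dcn (-1.13 ± 0.32). The call of Met was lost with DESeq2 (-1.12, adjusted p = 0.0542). It was also lost without WT 2 (log2 fold change of -0.85), without Trim28 KO 1 (-1.01) and without Trim28 KO 2 (-1.25). Tgfb3 rose from 106 and 89.7 CPM in WT to 155 and 179 CPM in Trim28 KO (0.77 ± 0.20), but was not called without Trim28 KO 2 (adjusted p = 0.0917). Tgfb1, the ligand bound by Dcn, Bgn, Fmod and Aspn, stood at 111 and 70.9 CPM in WT and at 51.1 and 61.1 CPM in Trim28 KO and fell (-0.69 ± 0.22, edgeR quasi-likelihood adjusted p = 0.0293). The call of Tgfb1 was lost with limma-voom (-0.66, adjusted p = 0.0568). It was also lost without WT 1 (log2 fold change of -0.31), without Trim28 KO 1 (-0.56) and without Trim28 KO 2 (-0.82). Tlr2 and Tlr4, the immune receptors through which free Bgn acts, were not called (0.57 and -0.11). With library size alone Tlr2 was called higher (0.63, edgeR quasi-likelihood adjusted p = 0.0486), and without WT 2 its log2 fold change was 0.75. Both receptors were picked for naming with their values known, and macrophage markers were higher in the same Trim28 KO libraries. Without Trim28 KO 1 the list had 2 falls.

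**Figure D5:**
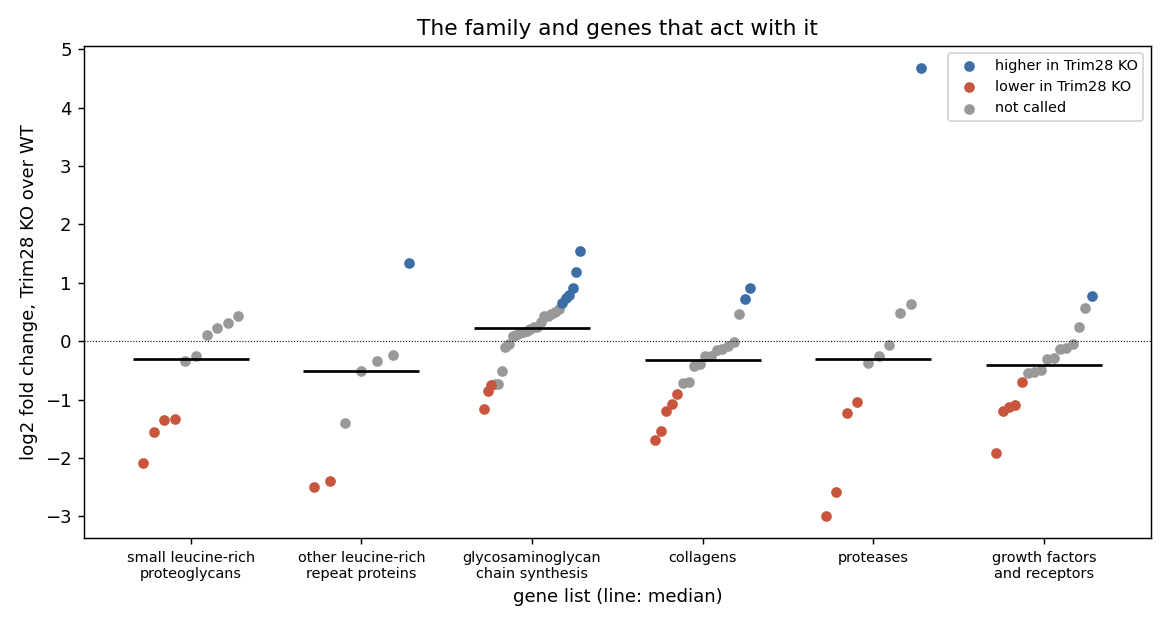
Log2 fold change of every tested gene of the family and of 5 related gene lists, with each list's median as a line. The proteoglycan genes split into 4 lower and 6 uncalled genes, and the chain synthesis list is the one whose median (0.23) lies above 0.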

How the data were processed

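Each of the 4 libraries was assigned its genotype from the labels. The authors deposited raw counts in a single table, 1 value per gene and library, with no normalization. Its header records featureCounts 1.6.4 in paired-end mode, run on exons with gene names as the unit and GENCODE M23 for mm10 as annotation. Neither strandedness, multi-mapping nor multiple overlap was set, so reads falling in exons of 2 genes were left uncounted, per the file headers. The other deposited column holds merged exon lengths. The submitters' processing notes also name Subread 1.6.4 and edgeR, and no aligner is given in the sources used here. Gene positions are those of GENCODE M21 (GRCm38, the assembly of mm10), whose exon lengths equal the deposited ones for all 10 genes.

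The 16639 genes passing filterByExpr were scaled by TMM and tested with edgeR 4.0.16 (limma 3.58.1, R 4.3.3; robust quasi-likelihood fit, no covariate), with Benjamini-Hochberg adjustment. Standard errors are the log2 fold change over the square root of F. The steps were tested on simulated data. Floors cover counting error only. Counts of the replicates differed by more than sampling alone gives (a chi-square test divided by its degrees of freedom was 30.6 in WT and 24.6 in Trim28 KO). The rule for names took all 10 members, Trim28, every tested gene of the other leucine-rich repeat list, up to 4 called genes of each further list by p-value plus Col1a1, Col2a1 and Tgfb1, the 3 nearest tested genes on each side of each locus, and 5 genes of like profile for each of the 2 members with the smallest p-values; other names are marked where they stand. Sox9, Alpl, Ibsp, Xist and overlapping genes were named as checks. The members, lists and tests were chosen with earlier results of these data known. Alternatives were relative log expression (RLE) factors, library size alone, no filter, a filter at 5 CPM in 2 libraries, DESeq2 1.42.0, limma-voom, omission of marker genes of other cells, a replicate block, omission of each library, and the longest transcript as gene length. A crossed replicate block and exon bases shared with no other gene were added after the data were seen.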

Additional observations from a re-analysis of the deposited data

How the results depend on the processing

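Epyc, Kera, Omd and Aspn were called lower, and the other 6 genes were not called, under all 13 other settings of the fit. Over these settings the log2 fold change ran from -2.16 to -1.995 for Epyc, -1.67 to -1.39 for Kera, -1.40 to -1.28 for Omd and -1.42 to -1.17 for Aspn. Dcn alone of the 10 changed sign, running from -0.13 (without Trim28 KO 1) to 0.33 (without Trim28 KO 2) when 1 library was left out, and it was never called. A genotype left with a lone library is assumed to vary like the other. Leaving out 1 library gave 702 to 1442 higher and 572 to 1406 lower genes over the whole table, with 702 and 572 without Trim28 KO 1 and 906 and 807 without Trim28 KO 2. In the same way, the collagens had 0 to 2 rises and 1 to 6 falls, the chain synthesis enzymes 3 to 7 rises and 0 to 4 falls, the growth factors and receptors 0 to 2 rises and 2 to 5 falls, and the proteases 1 to 2 rises. The count of collagen rises was 1 with limma-voom and 1 with the stricter filter, and that of growth factor rises 2 with library size alone. Protease rises numbered 3 with DESeq2, 2 with library size alone, 2 with no filter, and 0 with the stricter filter, which removes Mmp3. Replicate numbers could not be shown to pair the libraries (2 pairs, correlation of deviations of -0.107). With the replicate block protease rises numbered 2 and the 10 proteoglycan genes had 4 falls and 0 rises, and the crossed block gave the same 2, 4 and 0. Per kb of the longest transcript, Bgn stood at 975 in WT and 1139 CPM in Trim28 KO, above Fmod (834 in WT), and Dcn at 102 and 109.6 CPM. The Bgn length used there is that of a transcript with 1 exon. Per kb of exon shared with no other gene, Epyc stood at 703 in WT and 166 CPM in Trim28 KO, which put it above Bgn in WT, and Prelp at 65.5 CPM in WT.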
